A study of Arabidopsis thaliana with 6 samples.

Results

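The genes described here are 10 Arabidopsis thaliana genes for the breakdown, synthesis and transport of proline, chosen by gene code out of 32313 codes in the count table. They are the proline dehydrogenases ERD5 and ProDH2, the dehydrogenase P5CDH, the synthetases P5CS1 and P5CS2, the reductase P5CR, the ornithine aminotransferase OAT, the transporters ProT1 and ProT2, and the transcription factor bZIP53. All 10 codes were in the table, 9 had enough reads to be tested, and bZIP53 was listed at 0 in every library. The list was drawn up with results of the same comparison in view, because ERD5 was among the genes with the largest differences between the groups. The values of the members are therefore given as a description, without p-values.

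Whole seedlings of wild type Columbia (WT) and of BP12-2, in the same ecotype, were compared by RNA-seq with 3 libraries per group. The labels call BP12-2 a knockdown of TOR, a kinase that couples nutrient and energy status to growth. Plants of the BP12 type express FKBP12 from yeast, through which rapamycin binds and inhibits the TOR of the plant. Both groups were 15 days old after germination when they were moved for 3 days from 0.5 MS medium to this medium plus rapamycin at 10 µg/ml, so the drug was shared and the genotype differed. Seedlings on the solvent medium were not analysed here, and a difference that exists without the drug cannot be told apart from a response to it. BP12-2 is 1 line, and the labels do not say whether libraries came from separately grown seedlings, so the spread between them may be technical. The column headers carry a code whose first part is shared within each group and differs between the groups. Its meaning is not stated, and whatever it marks cannot be told apart from genotype.

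Proline is made in plants mainly from glutamate. P5CS, the rate-limiting enzyme of this route, makes pyrroline-5-carboxylate (P5C), and P5CR reduces it to proline. Breakdown runs in mitochondria, where proline dehydrogenase oxidises proline back to P5C and P5CDH turns P5C into glutamate, while OAT feeds P5C from ornithine. ERD5, named for its early response to dehydration, is known to be repressed under water stress and induced by proline on rehydration and by low energy. The sequence ACTCAT before its start is known as a proline-responsive element, bound by bZIP53 and other bZIP factors of group S1, and the longer form ACTCATCCT was described as the element of proline and hypoosmolarity responses.

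The sequence before the ERD5 start is shown because it holds that element and because ERD5 was the member that differed. It is read from the TAIR10.1 genome on the minus strand of chromosome 3 at chr3:12451707-12452006, which covers bases 450 to 151 before the annotated start at 12451556. The ERD5 coding sequence begins 430 genomic bases downstream of that start. Capitals mark ACTCATCCT.
ERD5: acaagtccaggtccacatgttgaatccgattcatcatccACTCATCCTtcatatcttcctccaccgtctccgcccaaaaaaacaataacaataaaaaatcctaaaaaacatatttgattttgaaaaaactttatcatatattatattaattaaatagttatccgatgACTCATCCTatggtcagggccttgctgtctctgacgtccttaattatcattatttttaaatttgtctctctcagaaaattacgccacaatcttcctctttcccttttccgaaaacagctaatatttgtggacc
The same stretch before ProDH2, the paralogous proline dehydrogenase, at chr5:15500676-15500975 on the plus strand, has neither form and is shown for contrast.
ProDH2: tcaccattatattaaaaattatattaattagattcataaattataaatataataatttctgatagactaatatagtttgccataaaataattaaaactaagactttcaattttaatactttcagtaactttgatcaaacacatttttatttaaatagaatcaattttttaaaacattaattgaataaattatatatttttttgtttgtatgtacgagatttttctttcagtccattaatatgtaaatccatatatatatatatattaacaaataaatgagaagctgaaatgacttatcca

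ACTCATCCT began 411 and 283 bases before the ERD5 start, both on the coding strand. A scan of both strands over 500 bases before the start of 26641 protein-coding genes found ACTCATCCT at 58 genes (0.218%), and ERD5 was the 1 gene with 2 copies. The shorter ACTCAT, which these copies contain, was found before 24.3% of the genes. ERD5 held it 3 times, the third copy on the opposite strand beginning 24 bases before the start, P5CDH 2 times and P5CS2 once. The other 7 members had no ACTCAT in this window. The G-box CACGTG, present before 9.46% of all genes, was before none of the 10 members. The C-box GACGTC, present before 3.83%, was before ERD5 and P5CS1. A match of letters is a description and not a bound site.

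Total counts per library ran from 6706610 to 17092773. TOR itself was counted at 27.8 to 32.6 CPM (counts scaled to library size by the TMM method) in BP12-2 and at 34.3 to 38.5 CPM in WT. Its log2 fold change was -0.22 ± 0.10 (SE), with an adjusted p of 0.292 by the edgeR quasi-likelihood test. All BP12-2 libraries lay below all WT libraries for TOR, as they did for 12.2% of all tested genes. A knockdown of TOR RNA is therefore not read from these values. BP12-2 replicate 1 and WT replicate 3 stood apart in transcripts of the circadian clock: the median of 10 clock genes on the log2 scale, relative to the average over the 6 libraries, was 0.64 and 0.82 there and between -0.41 and -0.24 in the other 4. Both groups had leaf and root markers, each of 3 genes. The summed level of the leaf markers was 16583 to 20859 CPM in WT and 21861 to 25138 CPM in BP12-2, and that of the root markers 125 to 198 and 222 to 329 CPM, with all 3 genes of each list higher on average in BP12-2. Pollen markers were at 0 in all libraries, and 3 seed storage genes summed to at most 1.90 CPM. The part of organ makeup and clock state in the differences below was not tested, but values without the clock-marked pair are given.

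ERD5 (AT3G30775), the main proline dehydrogenase, was the member that separated the genotypes. It stood at 488, 501 and 439 CPM in WT replicates 1 to 3 and at 59.2, 85.3 and 64.8 CPM in BP12-2 replicates 1 to 3. All BP12-2 libraries were far below all WT libraries, and the gap between the groups was several times the spread within either. The counts behind these values were 3787, 6739 and 7294 reads in WT and 593, 567 and 1113 reads in BP12-2. The WT mean was 6.82 times the BP12-2 mean, and the log2 fold change of BP12-2 against WT was -2.77 ± 0.16 (SE, n = 3 per group). ERD5 had the fifth most negative fold change of 19436 genes tested and the most negative of the 14818 with a mean of at least 5 CPM. Fewer cells that express ERD5 and less ERD5 RNA per cell cannot be told apart in whole seedlings.

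**Figure D1:**
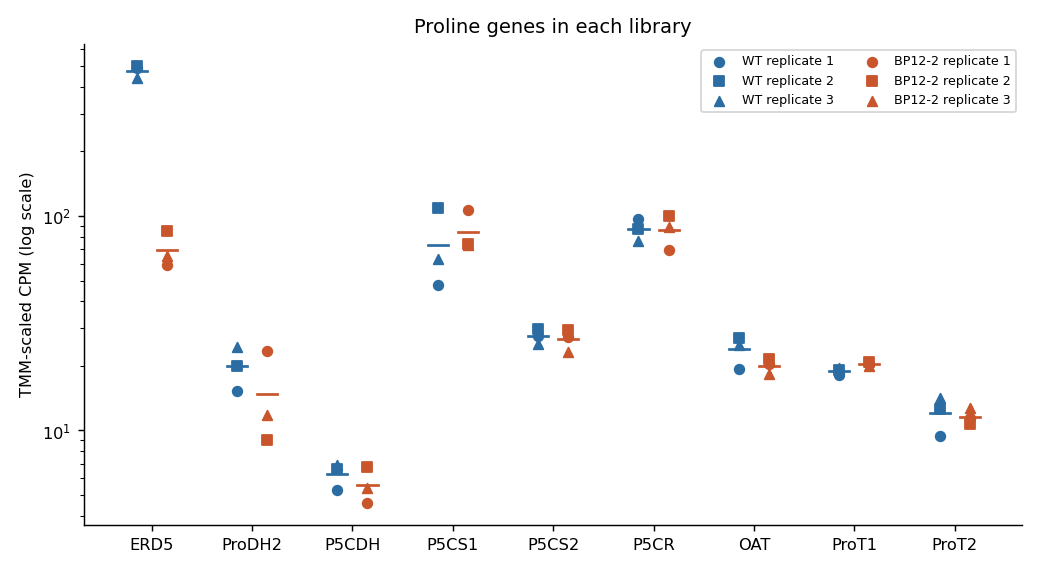
TMM-scaled CPM on a log axis for the 9 measured proline genes in each of 6 libraries, WT in blue and BP12-2 in orange, with symbols for replicates and lines for group means. ERD5 lies at 439 to 501 CPM in WT and at 59.2 to 85.3 CPM in BP12-2, and the other genes lie close together or overlap.

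The ERD5 difference was present in either clock state. It was -2.73 on the log2 scale among the 4 libraries with the common clock pattern and -2.87 between BP12-2 replicate 1 and WT replicate 3 (log2 of CPM plus 1). Leaving out any library moved it between -2.94 and -2.67. Of the 9 measured members, ERD5 was the 1 that passed the edgeR quasi-likelihood test adjusted over all genes, and it was lower in BP12-2. The list was drawn up because ERD5 differed in this comparison, so its pass and its rank are descriptions and not support. Of all tested genes 0.0669% passed, 0.0617% as lower and 0.00515% as higher. Without BP12-2 replicate 3, 0 genes passed that test, ERD5 included, while 2382 had an unadjusted p under 0.05.

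ERD5 (chromosome 3, 12448636 to 12451556, minus strand) has 4 exon blocks with 2174 exonic bases in TAIR10.1. These overlap no exon of another gene in that annotation, and no 50-base word of them occurs in another gene's exons. The same was found for ProDH2, OAT and ProT1. The counts were made on TAIR9, whose gene models were not used here.

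ProDH2 (AT5G38710), the other proline dehydrogenase, was counted at 15.3, 19.9 and 24.4 CPM in WT and at 23.5, 9.03 and 11.8 CPM in BP12-2. The groups overlapped because BP12-2 replicate 1 lay within the WT range. The log2 fold change was -0.43 ± 0.34 (SE), and it was -0.92 without BP12-2 replicate 1. The 2 clock-marked libraries, BP12-2 replicate 1 and WT replicate 3, were the highest of their groups for this gene, and their difference was -0.06 against -0.74 among the other 4 libraries.

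Per kilobase of exon, ERD5 made up most of the proline dehydrogenase transcript in every library, less so in BP12-2. Its share of ERD5 plus ProDH2 was 96.8%, 96.0% and 94.5% in WT and 70.6%, 90.0% and 83.9% in BP12-2. The groups did not overlap, which largely follows from the ERD5 difference, since ProDH2 overlapped between them. BP12-2 replicate 1, with low ERD5 and high ProDH2, had the lowest share.

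P5CDH (AT5G62530), which completes the breakdown to glutamate, was counted at 5.28, 6.61 and 6.93 CPM in WT and at 4.59, 6.77 and 5.41 CPM in BP12-2. The groups overlapped, with a log2 fold change of -0.20 ± 0.19 (SE). It rested on 41 to 115 reads per library. In TAIR10.1, 811 of its exonic bases (31.3%) overlap SRO5 (AT5G62520) on the opposite strand of chromosome 5, a known antisense pair, and reads of this stretch cannot be told apart without strand. SRO5 was at 2.45 ± 0.466 CPM in WT and 1.88 ± 0.326 in BP12-2 (SD, n = 3).

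On the synthesis side, P5CS1 (AT2G39800), the stress-induced synthetase, varied more between libraries of a group than between groups. It was at 47.5, 109 and 62.8 CPM in WT and at 106, 73.7 and 73.2 CPM in BP12-2. WT held both the lowest and the highest library. The log2 fold change was 0.20 ± 0.30 (SE). It was 0.61 without WT replicate 2, the highest library, -0.03 without WT replicate 1, the lowest, and -0.11 in the 4 libraries of the common clock pattern.

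P5CS2 (AT3G55610), the synthetase known for growing tissue, stood at 27.6, 29.9 and 25.4 CPM in WT and at 27.2, 29.3 and 23.2 CPM in BP12-2. Its log2 fold change was -0.06 ± 0.12 (SE), smaller than its error. P5CR (AT5G14800), which completes synthesis, stood at 97.0, 87.0 and 76.7 CPM in WT and at 69.2, 99.9 and 88.7 CPM in BP12-2, with a log2 fold change of -0.02 ± 0.15. Its groups overlapped across nearly their whole range. Of the 50-base words of P5CR, 8.4% occur in other genes, so part of its counts is uncertain. P5CS1 and P5CS2 overlap opposite-strand neighbours by 2.9% and 1.1% of their exonic bases.

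OAT (AT5G46180), which links ornithine to P5C, stood at 19.4, 27.1 and 25.1 CPM in WT and at 20.4, 21.5 and 18.3 CPM in BP12-2. WT replicate 1 lay inside the BP12-2 range, and the log2 fold change was -0.27 ± 0.14 (SE).

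**Figure D2:**
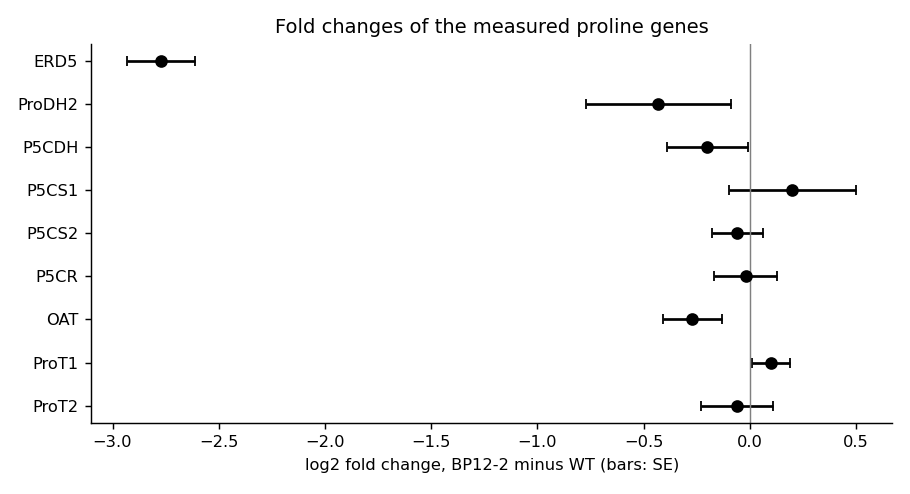
Log2 fold change of BP12-2 minus WT for the 9 measured proline genes, with bars for the SE. ERD5 lies at -2.77 and the other 8 genes lie between -0.43 and 0.20.

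The transporters ProT1 and ProT2, which carry proline and compatible solutes across the plasma membrane, differed little. ProT1 (AT2G39890) was at 18.2, 19.2 and 19.6 CPM in WT and at 20.4, 20.8 and 20.1 CPM in BP12-2. All BP12-2 libraries were above all WT libraries, by a log2 fold change of 0.10 ± 0.09 (SE). Such a separation held for 12.1% of all tested genes in this direction and for 12.2% in the other, which was that of ERD5. ProT2 (AT3G55740), known as induced by water and salt stress, was at 9.40, 12.6 and 14.2 CPM in WT and at 11.5, 10.7 and 12.7 CPM in BP12-2, and its groups overlapped. Of its 50-base words 3.0% occur in other genes.

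bZIP53 (AT3G62420), which activates ERD5 through ACTCAT, was listed at 0 in each of 6 libraries. The other 4 group S1 factors, bZIP1, bZIP2, bZIP11 and bZIP44, were also listed at 0, so 5 of 5 were. The table holds a code numbered next to each of them (AT3G62422, AT5G49448, AT2G18162, AT4G34588 and AT1G75388). These 5 codes, which TAIR10.1 does not carry, were at 0 as well. Of the 535 codes in the table that TAIR10.1 does not carry, 483 were at 0 in all libraries. No level, and no upper limit, of group S1 factors could be read from these zeros. Whether codes that overlap in the TAIR9 annotation left their reads uncounted was not tested.

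Set on a common scale of CPM per kilobase of exon, the order of levels changed at its top. In WT, ERD5 led at 219 ± 14.9 (SD, n = 3), followed by P5CR at 60.2 ± 7.02 and P5CS1 at 24.6 ± 10.8. In BP12-2, P5CR led at 59.6 ± 10.7, and ERD5 at 32.1 ± 6.33 did not differ from P5CS1 at 28.4 ± 6.34 beyond their spread. In both genotypes OAT, P5CS2, ProDH2 and ProT1 formed a band between 7.14 and 10.6 whose neighbours were mostly within their spread, followed by ProT2 at 5.07 and 4.89. P5CDH was lowest, at 2.42 ± 0.338 in WT and 2.16 ± 0.425 in BP12-2. Exon lengths came from TAIR10.1 and not from the annotation behind the counts.

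The ratio of P5CS1 to ERD5 within a library, on that scale, was 0.0713, 0.159 and 0.105 in WT and 1.31, 0.632 and 0.827 in BP12-2. The groups were far apart, which follows from the ERD5 difference given above, since P5CS1 overlapped between them. BP12-2 replicate 1 was the 1 library in which P5CS1 exceeded ERD5. The ratio of P5CDH to ERD5 lay between 0.00909 and 0.0132 in WT and between 0.0651 and 0.0702 in BP12-2, and the difference lay in ERD5. P5CS1 was 61.8% to 77.4% of both synthetases in WT and 70.2% to 78.5% in BP12-2, and these ranges overlapped.

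**Figure D3:**
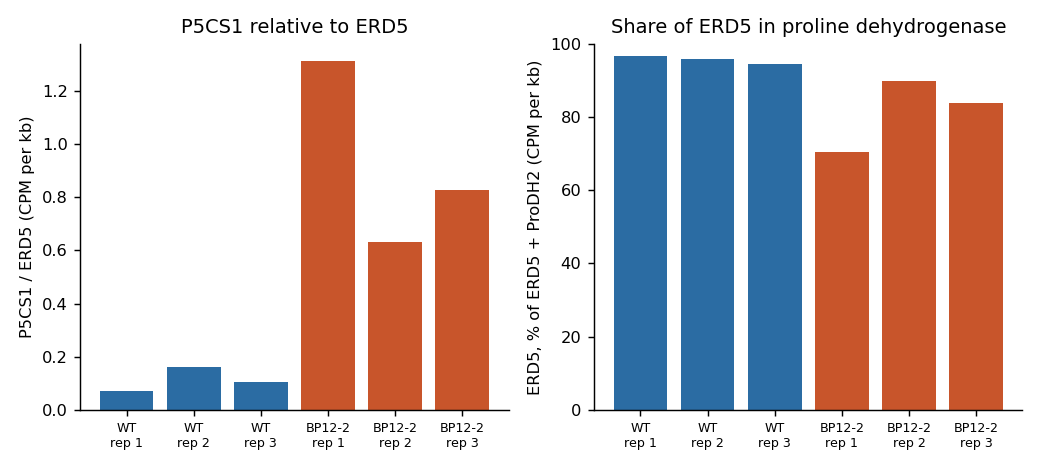
Ratio of P5CS1 to ERD5 (left) and ERD5 as a percentage of ERD5 plus ProDH2 (right), both from CPM per kilobase of exon, as bars for each of 6 libraries with WT in blue and BP12-2 in orange. The ratio is at most 0.159 in WT and at least 0.632 in BP12-2, and the share is at least 94.5% in WT and at most 90.0% in BP12-2. Both measures carry the ERD5 difference and are not separate results.

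The genes around these members were examined through 6 further lists of 48 genes, of which 43 were tested: other amino acid transport, arginine and glutamate metabolism, proline use, bZIP factors of groups C and S1, low-energy markers, and osmotic and abscisic acid (ABA) markers. None of the 43 passed the edgeR quasi-likelihood test adjusted over all genes. By unadjusted p, 5 of the 43 were under 0.05, beside 3544 of the 19436 genes tested. Of the 43, 2 passed by DESeq2 and 2 by the edgeR exact test, which called 3.19% and 4.22% of all genes. Their median log2 fold change was 0.03, against 0.01 over all tested genes.

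Of 6 tested amino acid transport genes, AAP2 and AAP1, permeases of broad range, had the highest means. AAP2 was at 225 ± 65.0 CPM in WT and 223 ± 19.2 in BP12-2, and AAP1 at 129 ± 28.1 and 109.8 ± 8.48 CPM (SD, n = 3). LHT1, an importer of amino acids including proline, was named after its values were seen. It was at 12.7, 11.2 and 17.4 CPM in WT and at 8.68, 5.27 and 7.62 CPM in BP12-2. These were all below WT, as for 12.2% of all tested genes. The log2 fold change was -0.92 ± 0.23 (SE), with an edgeR adjusted p of 0.114. LHT1 passed by DESeq2, by the exact test and with a term for the clock-marked pair, which called 5.10% of all genes.

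Around glutamate, the end product of proline breakdown, GDH2, a glutamate dehydrogenase, was at 234, 234 and 304 CPM in WT and at 211, 141 and 135 CPM in BP12-2. All BP12-2 libraries were below WT, as for 12.2% of all tested genes. The log2 fold change was -0.66 ± 0.20 (SE), with an edgeR adjusted p of 0.150. GDH2 passed among the 4 libraries of the common clock pattern, where 38 genes did. It also passed with the term for the other pair, where 992 genes did. ARGAH2, an arginase that supplies ornithine, was at 104 ± 33.9 CPM in WT and 77.3 ± 7.17 in BP12-2 (SD, n = 3). Among 5 genes of proline use, 0 passed in any setting tried. OVA6, the organellar prolyl-tRNA synthetase, was at 27.7 ± 0.145 and 30.1 ± 3.34 CPM, and AT3G62120, its cytosolic counterpart, at 38.5 ± 2.26 and 38.1 ± 4.34 CPM.

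The 4 group C factors, which pair with group S1 factors, had log2 fold changes from -0.44 to 0.13. bZIP25 was at 61.2 ± 0.256 CPM in WT and 61.5 ± 6.95 in BP12-2, and bZIP10 at 35.1 ± 1.13 and 38.5 ± 1.96 CPM (SD, n = 3). bZIP9, named after its values were seen, was at 36.3, 32.0 and 27.1 CPM in WT and at 20.5, 25.9 and 23.9 CPM in BP12-2. It did not pass (edgeR adjusted p = 0.169) but did so with the term for the clock-marked pair.

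The low-energy markers, known to rise in darkness or sugar starvation and in part activated with ERD5 by the same bZIP factors, were spread on both sides of 0. Of 11 tested, 5 had positive and 6 negative fold changes, with a median log2 fold change of -0.09. ASN1, an asparagine synthetase, was at 76.1, 96.6 and 121 CPM in WT and at 170, 46.3 and 41.6 CPM in BP12-2, where BP12-2 replicate 1 was the highest of all 6 libraries. DIN10, a raffinose synthase-like protein, was at 284, 142 and 397 CPM in WT and at 263, 118 and 87.4 CPM in BP12-2. Both varied several-fold within BP12-2, unlike ERD5.

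Of the 13 osmotic and ABA markers, which accompany P5CS1 induction in water stress, 10 had positive fold changes, with a median log2 fold change of 0.19. Of the 19436 genes tested, 9882 had positive fold changes. The 3 markers with negative log2 fold changes were RD29B at -0.76 ± 0.64, RD29A at -0.22 ± 0.20 and ERD1 at -0.21 ± 0.17 (SE). COR47, a dehydrin, was at 366 ± 131 CPM in WT and 484 ± 49.2 in BP12-2 (SD, n = 3). ERD14, another dehydrin, was at 319, 273 and 279 CPM in WT and at 372, 361 and 345 CPM in BP12-2. All its BP12-2 libraries were above WT, as for 12.1% of all tested genes (edgeR adjusted p = 0.179). KIN2, a cold and ABA-induced protein and named after its values were seen, was at 20.0, 6.76 and 11.4 CPM in WT and at 32.7, 41.8 and 26.0 CPM in BP12-2. It did not pass (edgeR adjusted p = 0.116) but passed by DESeq2 and the exact test.

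**Figure D4:**
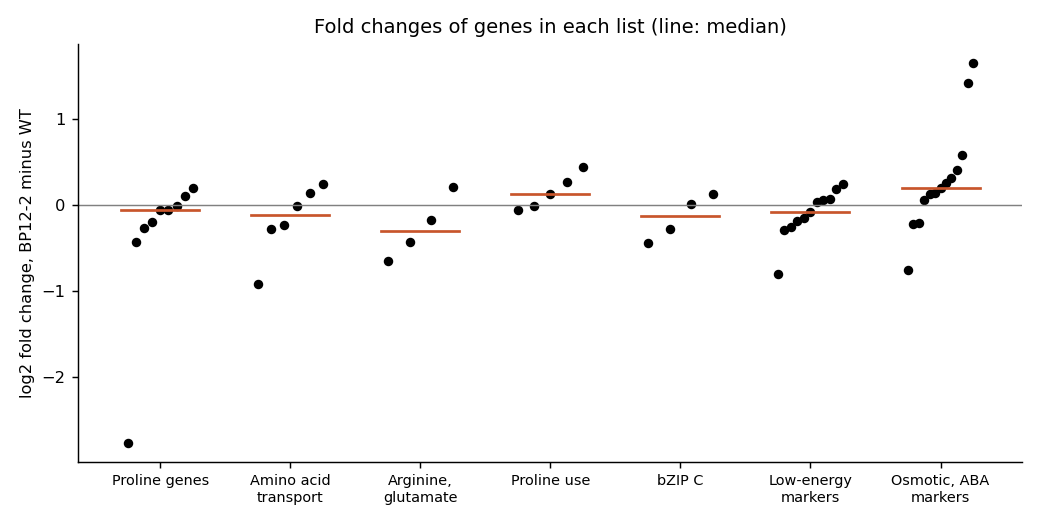
Log2 fold change of BP12-2 minus WT for each tested gene of the proline list and of 6 further lists, with a line at each median. ERD5 at -2.77 lies apart from all other points, the next lowest of which is LHT1 at -0.92.

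The genes whose log2 CPM over the 6 libraries was most like that of ERD5, by Pearson correlation among 14817 genes with a mean of at least 5 CPM, were CDC5, AT5G23370, AT5G05480, AT4G39780 and AT3G25910, with coefficients from 0.9954 to 0.9993. As the 6 libraries form 2 groups, 188 genes had a coefficient over 0.95, and the measure shows likeness of pattern and not of size. CDC5, a MYB-related protein of the splicing machinery, was at 331 ± 0.954 CPM in WT and 264 ± 6.63 in BP12-2 (SD, n = 3), a far smaller difference. AT5G23370, annotated as a GRAM-domain, ABA-responsive-like protein, was at 12.0 ± 0.136 and 5.43 ± 0.391 CPM, and AT4G39780, annotated as an integrase-type DNA-binding protein, at 46.4 ± 1.09 and 25.4 ± 1.86 CPM. Among the members, the coefficient with ERD5 was highest for OAT at 0.62 and lowest for ProT1 at -0.82.

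The genes that share ACTCATCCT with ERD5 were looked up after the copies before ERD5 had been seen. Of the 58, 44 were tested. ERD5, AT5G23350 and AT5G23360 had the most negative log2 fold changes of the 44, at -2.77, -2.22 and -1.74. The 42 that did not pass the edgeR test, AT5G23350 among them, had a median of 0.01 and lay on both sides of 0, up to 0.79. By unadjusted p of that test, 15 of the 44 were under 0.05, beside 3544 of the 19436 genes tested. The element was looked up because of ERD5, so ERD5 is in this group by choice, and no more is read from the group. AT5G23350 was at 21.6, 18.1 and 20.5 CPM in WT and at 2.10, 7.22 and 4.13 CPM in BP12-2, and AT5G23360 at 17.4, 15.2 and 19.0 CPM in WT and at 5.69, 4.81 and 4.95 CPM in BP12-2. Both were far below WT in every BP12-2 library.

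The 4 copies are shown with 30 bases on either side, read on the strand of the gene, with ACTCATCCT in capitals. They lie at chr3:12451929-12451997 and chr3:12451801-12451869 (minus strand), chr5:7859346-7859414 (minus strand) and chr5:7861585-7861653 (plus strand) in TAIR10.1.
ERD5 at 411: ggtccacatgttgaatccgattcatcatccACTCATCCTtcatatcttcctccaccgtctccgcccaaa
ERD5 at 283: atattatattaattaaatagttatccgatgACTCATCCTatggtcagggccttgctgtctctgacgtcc
AT5G23350 at 183: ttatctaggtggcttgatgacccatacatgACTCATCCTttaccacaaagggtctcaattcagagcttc
AT5G23360 at 122: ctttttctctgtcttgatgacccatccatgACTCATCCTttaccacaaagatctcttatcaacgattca
AT5G23350 and AT5G23360 are neighbours on chromosome 5, and 46 of the 69 bases of their windows are identical, so they are related copies and not separate instances, and their counts may share reads. The ERD5 windows matched each other at 25 bases and those of the neighbours at 23 to 27. Each of these counts includes the bases of ACTCATCCT, which all windows share by choice. AT5G23370, named above for its likeness to ERD5, lies beside AT5G23360 at chr5:7863216-7864291 (minus strand). It has 1 copy of the shorter ACTCAT in the stretch scanned, but no ACTCATCCT. Its log2 fold change was -1.15 ± 0.12 (SE). AT5G23370 was picked because it followed ERD5 over the same 6 libraries, so its difference between the groups is no separate result. Whether ACTCATCCT has a part in the differences of these neighbours was not tested.

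**Figure D5:**
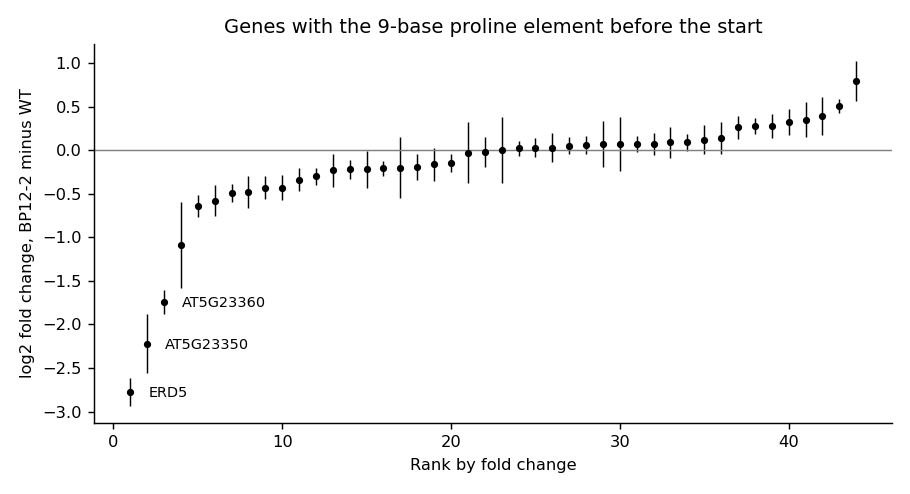
Log2 fold change of BP12-2 minus WT, with bars for the SE, for the 44 tested genes that have ACTCATCCT in the 500 bases before their start, ordered by fold change. ERD5, AT5G23350 and AT5G23360 lie at -2.77, -2.22 and -1.74, and the other genes lie on both sides of 0, between -1.09 and 0.79.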

How the data were processed

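The authors deposited whole-number read counts per gene, not normalized. Per the submitters' processing notes and the series design text, paired-end reads were aligned to TAIR9 with Bowtie and counted with HTSeq. Versions, counting mode and strand use are not stated there, so overlapping genes may share reads. Of 32313 codes, 8089 were 0 throughout and 31778 were in the TAIR10.1 annotation, the source of names, exon lengths, coordinates and sequences. No coordinates were converted.

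Members, lists and tests were chosen with earlier results of these data known. Genes were filtered with filterByExpr (count minimum 10, total minimum 15), which left 19436, and scaled by TMM (factors 0.972 to 1.021). The edgeR 4.0.16 quasi-likelihood test (R 4.3.3) had genotype as its only term, was 2-sided, and used Benjamini-Hochberg adjustment over all genes, with calls at an adjusted p of at most 0.05. Standard errors were computed as the fold change (log2) over the square root of F. On simulated counts with 200 changed genes, the quasi-likelihood test made 186 calls, of which 25 were false. The exact test made 231 calls with 54 false, and DESeq2 made 224 with 51 false. The simulated libraries were drawn independently and held no clock difference, so these shares need not hold for the real libraries. Alternatives were RLE factors, no filter, DESeq2 1.42.0, the exact test, a replicate block, each library left out, and a term for, or removal of, the clock-marked pair. The smallest chi-square per degree of freedom between libraries was 10.9, so none repeated another. Named were all members, the 5 genes most like ERD5, and per list the genes past the threshold or the 2 with the highest mean. Log2 values for correlations had a prior count of 2.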

Additional observations from a re-analysis of the deposited data

How the results depend on the processing

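The ERD5 log2 fold change lay between -2.94 and -2.67 over all 14 settings. The count of all genes called, 13 by the quasi-likelihood test, was 56 without the filter (16 higher, 40 lower), 620 by DESeq2, 821 by the exact test, 38 in the 4 libraries of the common clock pattern, 992 with the term for the other pair (489 higher, 503 lower), and from 0 to 56 with a library left out. The count of members called was 1, and it was 0 or 1 with a library left out, 0 only without BP12-2 replicate 3. The count in the 6 further lists was 0, and it was 2 by DESeq2, 2 by the exact test, 1 in the 4 libraries and 3 with the term, and 0 with each library left out. With the replicate number as a block, 0 genes and 0 members were called, while 2558 genes had an unadjusted p under 0.05. Deviations of libraries with the same number correlated at -0.31, 0.06 and -0.30 for replicates 1 to 3. The clock-marked pair, WT replicate 3 and BP12-2 replicate 1, correlated at 0.47. With few libraries and this clock difference, the values cannot exclude that the numbers pair the samples. Depth limits P5CDH most among the tested members, with as few as 41 reads in a library.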
